A study of Drosophila melanogaster with 2 samples.

Results

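The genes described here encode the protein subunits of the mitochondrial ribosome of Drosophila melanogaster. They were chosen by name, as every gene whose FlyBase symbol starts with mRpL or mRpS followed by a number, and 73 of the 14001 measured genes met this rule. Of these, 47 carry the symbol of the large subunit and 26 that of the small subunit. RNA sequencing covered 2 libraries from larvae of the third instar that carried the f04929 allele of HP1c on both chromosomes (HP1c f04929) and grew at 25 °C. Both libraries belong to that 1 genotype, so what they share, the allele included, cannot be compared with larvae that lack it. A second genotype in the series design was not analysed here. Nothing in the labels tells whether the replicates are separate cultures, and their spread may therefore be technical in part. No p-value is given, because there is only 1 group.

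Mitochondria keep their own ribosomes, which translate the few messages of the mitochondrial genome, all for subunits of the respiratory chain and the ATP synthase. The ribosomal RNAs are transcribed inside the organelle, while the proteins of the ribosome are encoded in the nucleus, made in the cytosol and imported. One set of these proteins has counterparts in bacterial ribosomes, and another set arose in the mitochondrial lineage and has none. In flies, loss of such genes is known to slow growth and development, as in the bang-sensitive tko mutants.

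The libraries held 39745145 and 45177298 estimated reads in replicates 1 and 2, and the members took between 80 and 4021 of them each per library. Entries annotated as pseudogenes of cytosolic rRNA took 12.1% of the reads of replicate 1 and 2.55% of replicate 2. This lowers the TPM of all other genes in replicate 1. The SDs of TPM and the order of the libraries in TPM include this difference. TPM is a level per length of transcript, scaled to the same total in each library. All 9 markers of larval fat body, salivary gland, cuticle and muscle were high, from 522 TPM for the muscle actin Act57B in replicate 2 to 59128 TPM for the salivary glue gene Sgs7 in replicate 2, while the adult yolk genes Yp1, Yp2 and Yp3 lay under 1 TPM. Markers of several tissues differed between the libraries, with the glue gene Sgs3 at 4639 and 9558 TPM. The cuticle genes Lcp1 and Lcp4 were 1.62-fold and 1.75-fold higher in replicate 2, and the fat body gene Fbp1 1.75-fold higher in replicate 1. The other fat body markers moved less, with Lsp1beta 1.12-fold higher in replicate 1 and Lsp2 at 8537 and 8555 TPM. The part of these markers in the differences of the members was not tested. HP1c itself stood at 0.842 and 1.08 TPM. In RNA of larvae, fewer cells of a type and less RNA per cell cannot be told apart.

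All 73 mitochondrial ribosomal protein genes were expressed, each at a moderate level within a narrow range. The sum over the members was 1670 TPM in replicate 1 and 1740 TPM in replicate 2, which is 0.171% ± 0.00496 of all TPM (SD, n = 2). Of the members, 39 had mean levels from 10 to under 20 TPM, 27 from 20 to 40 TPM and 6 above 40 TPM, and 1 lay under 10 TPM. The median member stood at 18.7 TPM in replicate 1 and 19.7 TPM in replicate 2, against medians of 13.2 and 12.8 TPM for the 10900 genes detected, that is, at 1 TPM or more in both libraries. Within each library the upper quartile of the members was 1.73 and 1.70 times the lower quartile, whereas for all detected genes it was 6.29 and 6.0 times. Ranked among the detected genes by mean level, members ranged from percentile 41.6 to percentile 90.1, and 64 of 73 lay in the upper part, above percentile 50.

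The large and small subunit genes stood at similar levels. The median of the 47 large subunit genes was 18.3 TPM in replicate 1 and 18.5 TPM in replicate 2, a mean of 18.4 ± 0.131 TPM (SD, n = 2). For the 26 small subunit genes the medians were 19.9 and 21.3 TPM, a mean of 20.6 ± 1.01 TPM. The ratio of the medians, large over small, was 0.924 and 0.870, or 0.897 ± 0.0378. Summed over genes the order turned with the number of genes, with 1024 and 1057 TPM for the large subunit against 647 and 683 TPM for the small subunit. The interquartile ranges overlapped, from 15.1 to 27.0 TPM for large and 16.5 to 29.2 TPM for small subunit genes in replicate 1. When levels were not divided by length, as CPM, the ratio of the medians was 1.03.

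**Figure D1:**
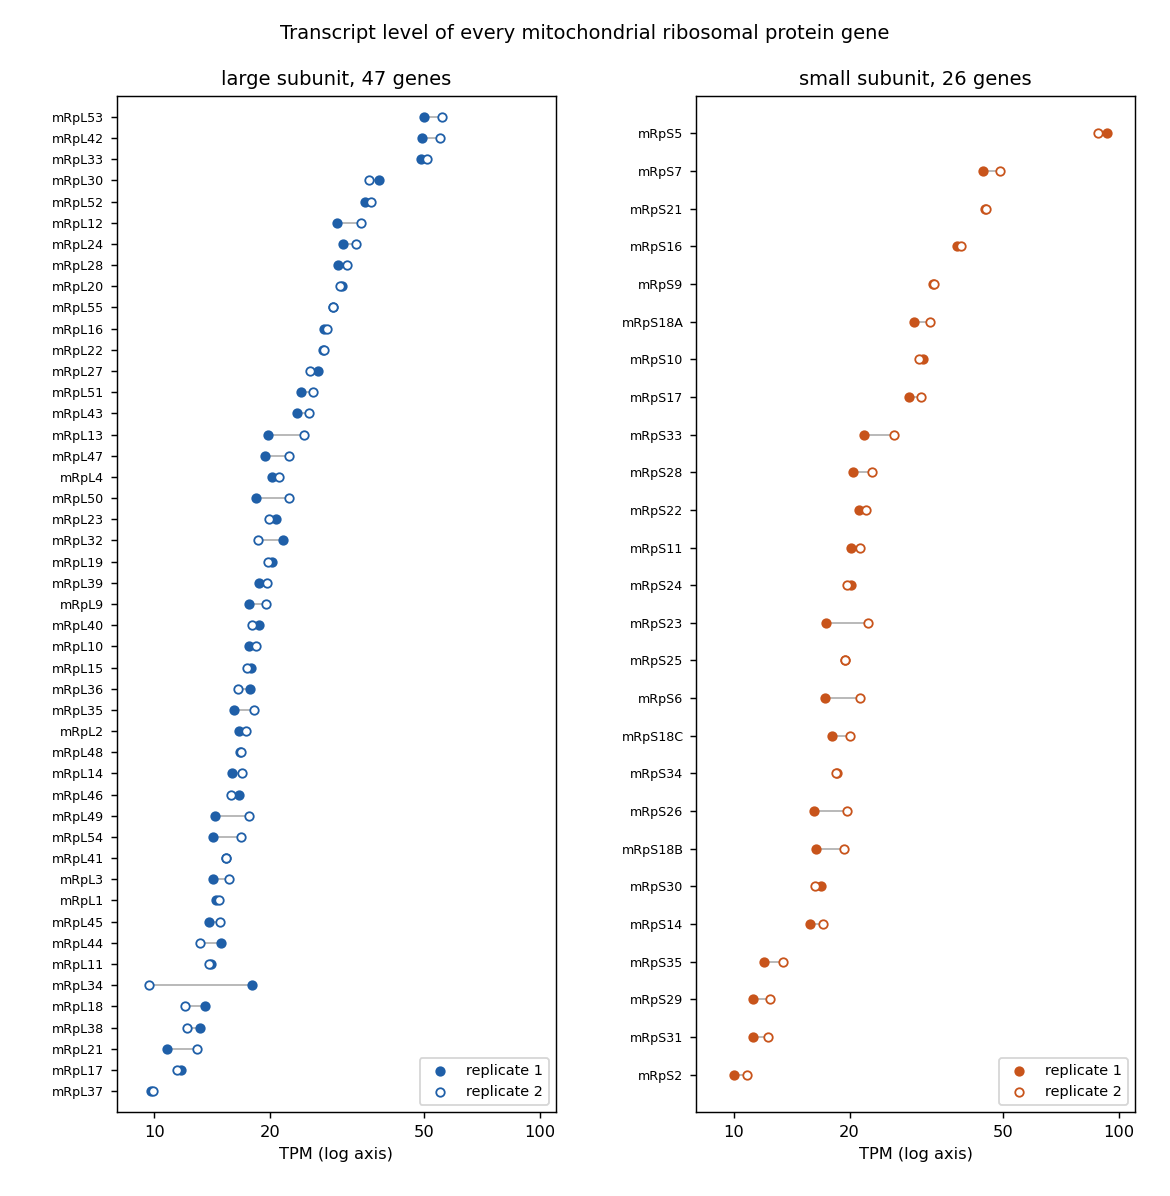
Each row is 1 gene, ordered by mean level within the large subunit (47 genes, left) and the small subunit (26 genes, right), with TPM on a log axis; filled circles are replicate 1, open circles replicate 2, and the grey line joins the pair. Most pairs lie close together between 10 and 40 TPM, mRpS5 stands highest at 93.3 and 88.2 TPM, and mRpL34 has the widest pair at 17.9 and 9.68 TPM.

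Of the large subunit genes, mRpL53 was the most abundant, at 50 TPM (95% interval 47.2 to 52.9) in replicate 1 and 55.8 TPM (53.2 to 58.4) in replicate 2. Its protein has no bacterial counterpart. The value is uncertain, because the annotation gives mRpL53 (2R, 13954195 to 13955664, plus strand) the same span as CG33155 and places both inside AGO1, and 100% of its exonic bases lie in exons of these genes. Next came mRpL42, also mitochondria-specific, at 49.5 and 55.2 TPM. The counterpart of the small bacterial protein L33, mRpL33, stood at 49.1 and 50.8 TPM from 355 and 471 reads. Then followed mRpL30 at 38.3 and 36 TPM and the mitochondria-specific mRpL52 at 35.2 and 36.4 TPM. The first 3 stood apart from the rest of their subunit in both libraries, since their lowest value, 49.1 TPM, exceeded the 38.3 TPM of mRpL30.

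At the low end of the large subunit lay mRpL37, a mitochondria-specific protein, at 9.82 TPM (95% interval 8.90 to 10.8) in replicate 1 and 9.95 TPM (9.14 to 10.8) in replicate 2. It was the lowest of all 73 members by mean level, and its libraries did not differ beyond counting error. The 4 genes above it were mRpL17 at 11.7 and 11.4 TPM, mRpL21 at 10.8 and 12.9 TPM, mRpL38 at 13.1 and 12.2 TPM, and mRpL18 at 13.5 and 12 TPM. In bacteria L17 lies near the exit of the peptide tunnel and L18 binds the 5S rRNA. Over the libraries the range of mRpL21 overlaps those of the others, while mRpL17 lay below mRpL38 and mRpL18 in both, and the order of mRpL38 and mRpL18 is not resolved. The highest of the large subunit exceeded the lowest 5.09-fold in replicate 1 and 5.76-fold in replicate 2, the latter with mRpL34 as the lowest. The stalk proteins, which in bacteria recruit the elongation factors and of which L12 is present in several copies per ribosome, were named after their values were seen. Their genes stood at 29.8 and 34.4 TPM for mRpL12 and at 17.6 and 18.4 TPM for mRpL10.

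Of the small subunit, and of all members, mRpS5 was the most abundant, at 93.3 TPM (interval 90.1 to 96.6) in replicate 1 and 88.2 TPM (85.5 to 91) in replicate 2. The bacterial protein S5 lies where the messenger RNA enters the ribosome. The gene spans 24537236 to 24543534 on 3L of BDGP6, in the pericentric part of that arm. The second member, mRpL53, reached 50 and 55.8 TPM, so the gap exceeded the spread between the libraries. Part of the gap rests on a transcript of mRpS5 of 479 bases at 29.8 and 24.9 TPM. The interval does not cover the sharing of reads between transcripts. The transcript of 1379 bases alone held 61.9 and 63.3 TPM. The next small subunit genes were mRpS7 at 44.5 and 49.0 TPM, mRpS21 at 44.9 and 45.2 TPM, mRpS16 at 38 and 39.0 TPM and mRpS9 at 33.0 and 33.2 TPM. In bacteria S7 organises the head of the subunit, S16 takes part in the assembly of its body, and the tail of S9 reaches the peptidyl-tRNA. The order of mRpS7 and mRpS21 is not resolved, since mRpS21 lies within the range of mRpS7.

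The lowest small subunit gene was mRpS2, at 10.03 and 10.9 TPM. Above it lay mRpS31 at 11.3 and 12.3 TPM, mRpS29 at 11.3 and 12.4 TPM, mRpS35 at 12 and 13.5 TPM and mRpS14 at 15.7 and 17.1 TPM. The protein of mRpS29 is the fly form of DAP3, a GTP-binding subunit that in mammals has also been tied to apoptosis. Ranges of mRpS31, mRpS29 and mRpS35 overlapped, while mRpS2 lay below and mRpS14 above all 3 in both libraries. mRpS14 shares 35.8% of its exonic bases with CG32533 and Naa15-16, so part of its reads may belong to these genes.

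Within the small subunit, the genes with low numbers had the higher median level. Members were split by the number in the symbol, with low numbers taken as at most 36 in the large subunit and at most 21 in the small subunit. Low numbers follow the names of bacterial proteins, and most proteins with higher numbers are specific to mitochondria. The split is not one by homology, since in mammals the proteins named MRPS24, MRPS28, MRPL47 and MRPL55 have high numbers and bacterial counterparts. The 14 low-number genes of the small subunit had medians of 28.9 and 30.5 TPM in replicates 1 and 2, and the 12 high-number genes had medians of 17.9 and 19.6 TPM. The ratio was 1.61 and 1.56, a mean of 1.59 ± 0.0381 (SD, n = 2). The classes overlapped. The 8 most abundant small subunit genes all had low numbers (mRpS5, mRpS7, mRpS21, mRpS16, mRpS9, mRpS18A, mRpS10 and mRpS17), but the other 6 low-number genes lay below mRpS33, the highest of the high-number class at 21.8 and 26.1 TPM, and the lowest gene of the subunit, mRpS2, had a low number too.

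In the large subunit the medians were 18.8 and 19.0 TPM for 28 low-number genes and 18.3 and 17.9 TPM for 19 high-number genes, a ratio of 1.04 ± 0.0239. Over both subunits together the ratio was 1.08 ± 0.0341. These ratios depended on which genes were counted. Without members that share exonic bases with other genes, the ratio was 1.83 in the small subunit (8 against 3 genes), 1.49 in the large subunit (10 against 9 genes) and 1.69 over both. Without division by length it was 1.08 in the small and 1.02 in the large subunit. With mRpS24, mRpS28, mRpL47 and mRpL55 counted among the genes with bacterial counterparts, it was 1.41 in the small subunit, 1.14 in the large subunit and 1.19 over both. In mammals the proteins of the genes named MRPS18A and MRPS30 are built into the large subunit. With mRpS18A and mRpS30 moved accordingly, the ratio was 1.54 in the small and 1.11 in the large subunit, and the medians of both subunits were 18.4 and 20.6 TPM, as before. The difference within the small subunit was noticed after the values were known, and genes are not replicates, so no test was made between the classes.

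**Figure D2:**
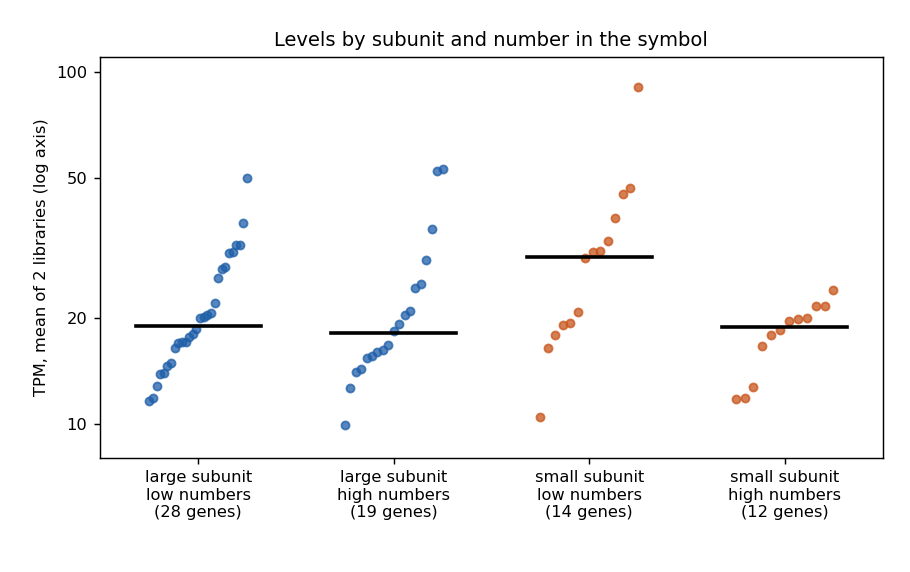
Each point is 1 gene by its mean TPM over 2 libraries on a log axis, grouped by subunit and by a low or high number in the symbol; black lines are the mean over libraries of the group median. The low-number genes of the small subunit have a median of 29.7 TPM but range down to mRpS2, and the other 3 groups lie at 18.9, 18.1 and 18.8 TPM.

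A family of 3 genes, mRpS18A, mRpS18B and mRpS18C, encodes variants of the same bacterial protein, S18. mRpS18A (3R, 8561917 to 8562593, minus strand) stood at 29.4 and 32.3 TPM in replicates 1 and 2. mRpS18B (2L, 20096329 to 20097253, minus strand) stood at 16.4 and 19.4 TPM, and mRpS18C (3R, 30423974 to 30424556, plus strand) at 18 and 20.1 TPM. The A form was higher than the other two in both libraries, with intervals that did not meet theirs (26.8 to 32.2 TPM in replicate 1 against at most 20.4 TPM). The B and C forms had overlapping intervals. A pair of further small subunit proteins bear other symbols and are outside the rule. The gene tko, which encodes the counterpart of S12 at the decoding centre, stood at 30.4 and 29.6 TPM, and bonsai, for the counterpart of S15, at 21.6 and 23.3 TPM. Both lay within the range of the low-number small subunit genes.

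Most members had a single listed transcript. Of the 73 genes, 55 (75.3%) had 1 transcript in the deposited tables, against 50.1% of the 13693 protein-coding genes. In the 18 others the most abundant transcript held, as a mean over the libraries, at least 69.0% of the TPM of the gene and over 90% in 11 of them. In 8 of these it was over 90% in both libraries. The lowest share belonged to mRpS5, with 66.3% in replicate 1 and 71.7% in replicate 2. Its transcript of 1379 bases held 61.9 and 63.3 TPM, and a transcript of 479 bases held 29.8 and 24.9 TPM, or 30.1% ± 2.61 of the gene (SD, n = 2). Of 91 member transcripts with a mean of at least 10 reads, 6 differed at least 2-fold between the libraries, against 19.4% of the 23627 transcripts tested in all. All 6 were among the 36 tested from members with several transcripts, for example the second transcript of mRpL16 with 179 and 61 reads, and over all genes with several transcripts 23.4% of those tested differed. The intervals do not cover the error of sharing reads between transcripts.

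Between the libraries the members moved little, as did most genes tested. Reads were scaled with TMM factors, and a gene was counted as differing when the ratio was at least 2-fold, its 95% interval excluded 1 and the mean was at least 10 reads. None of the 73 members met this, against 662 of 12203 genes tested (5.42%), which include genes with fewer reads than any member. Among the 10897 detected genes that were tested, 93 met it towards replicate 2 and 286 towards replicate 1. At 1.5-fold, 1 member did, which is mRpL34, against 12.2% of the genes tested. The interval excluded 1 for 20 members (27.4%), 18 of them higher in replicate 2, against 53.6% of the genes tested. The split by direction was counted with TMM scaling only and not over all genes tested, so it has no background here. The median member had 425 and 597 reads, and the width of this interval depends on the reads.

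The exception, mRpL34, stood at 17.9 TPM in replicate 1 (interval 14.8 to 21.5) and at 9.68 TPM in replicate 2 (7.68 to 12.1). It encodes the counterpart of L34, one of the smallest bacterial ribosomal proteins, and had 116 and 80 reads, the fewest of all members in either library. Its scaled reads were 1.88-fold higher in replicate 1 (interval 1.40 to 2.53). The gene spans 390 bases on 2R (16098948 to 16099337, plus strand), and 32 of its exonic bases overlap CG8414 on the opposite strand. CG8414 went the other way, with 424 and 673 reads and a ratio of 1.23-fold (1.08 to 1.39) towards replicate 2. The next largest difference was towards replicate 2, in mRpS23, a mitochondria-specific small subunit gene at 17.4 and 22.3 TPM (1.30-fold, 1.13 to 1.49).

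The median log2 ratio, replicate 2 over replicate 1, was 0.08 over the members and 0.02 over all genes tested. It was 0.06 in the large subunit, where 30 of 47 genes were above 0, and 0.14 in the small subunit, where 22 of 26 were. Over all genes tested, 6450 of 12203 were above 0. The interquartile range of the log2 ratio was 0.17 for the members, 0.38 for all genes tested and 0.35 for the detected genes among them. Several related lists, given below, had a range as narrow as the members. Scaled by library size only, the median of all genes moved to 0.21 and that of the members to 0.27. The counts above 0 depended on the scaling, with 45 of 47 large and 26 of 26 small subunit genes above 0 by library size and 28 and 19 with DESeq2 size factors. Over all genes this count was made with TMM scaling only. The rRNA share differed between these libraries, and its part in these shifts was not tested.

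**Figure D3:**
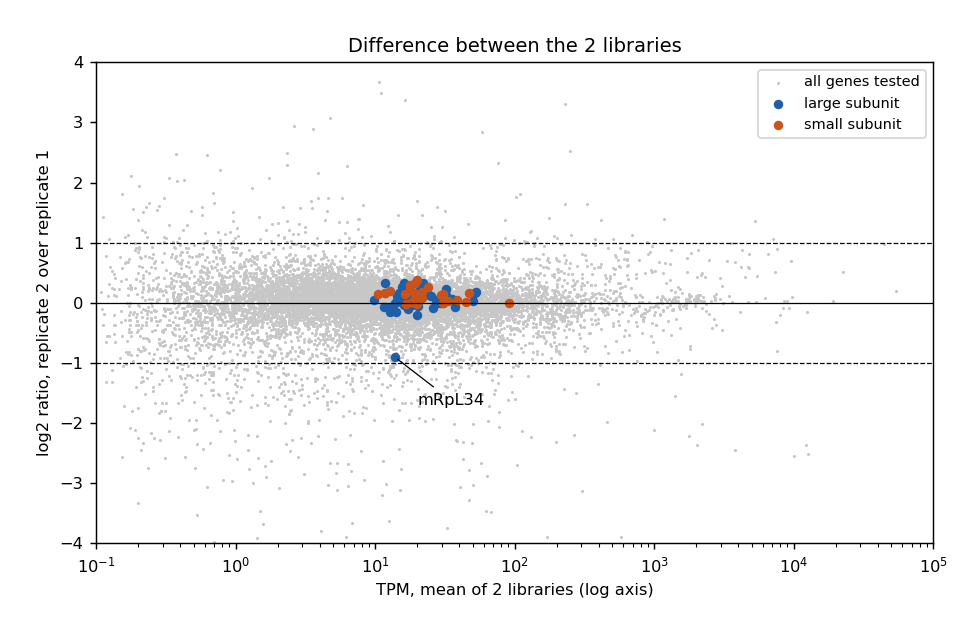
Each point is 1 gene, with mean TPM over 2 libraries on a log axis against the log2 ratio of TMM-scaled reads, replicate 2 over replicate 1; grey points are all genes tested except 66 beyond the vertical axis and 27 under 0.1 TPM, and dashed lines mark 2-fold. All 73 members lie between the lines, and mRpL34 at -0.91 is the one farthest from 0.

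Related genes of the mitochondrion were measured in the same libraries from lists of symbols. The other factors of mitochondrial translation were mostly less abundant than the ribosomal proteins. The 8 translation factors had medians of 8.61 and 8.38 TPM, so that the median member stood 2.26 ± 0.127 times higher (SD, n = 2). They split widely, with the elongation factor genes mEFTu1 at 35.7 and 34.7 TPM and mEFTs at 33.4 and 34.6 TPM, above most members, and the recycling factor gene mRRF2 at 2.14 and 1.91 TPM. The 15 mitochondrial aminoacyl-tRNA synthetases, which charge the tRNAs of the organelle, had medians of 4.32 and 4.54 TPM, from GluRS-m at 1.07 and 1.75 TPM to TrpRS-m at 15.2 and 16.2 TPM. The 10 genes for transcription and upkeep of mitochondrial DNA had medians of 6.29 and 7.22 TPM. Among these, the single-strand binding protein gene mtSSB stood at 39.0 and 36.7 TPM and the packaging factor gene TFAM at 36 and 33.5 TPM. PolG1, the catalytic subunit of the replicating polymerase, stood at 1.79 and 2.04 TPM.

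The genes of oxidative phosphorylation and of the cytosolic ribosome stood far higher. The 65 nuclear genes of oxidative phosphorylation had medians of 97 and 98.1 TPM, 5.08 ± 0.146 times the median member. Their range was wide, from ND-B8 at 2.16 and 1.46 TPM to ATPsynC, the rotor ring of the ATP synthase, at 1436 and 1290 TPM. The 13 genes encoded in the mitochondrion, whose messages the mitochondrial ribosome translates, had medians of 2956 and 2981 TPM. They ranged from mt:ND2 at 157 ± 65.9 TPM to mt:ATPase8 at 53798 ± 5970 TPM (SD, n = 2). The top place of mt:ATPase8 rests on the division by length, since its reads were 69793 and 102929. The gene mt:ATPase6 had 162143 and 181369 reads at 8033 ± 886 TPM. The 88 genes of the cytosolic ribosome, which translates the nuclear messages, had medians of 1595 and 1602 TPM, 83.4 ± 2.81 times the median member. The highest of them was RpLP1, a protein of the ribosomal stalk, at 3623 ± 9.03 TPM. Like the members, the cytosolic set had a narrow middle, with an upper quartile 1.74 and 1.85 times the lower. It also held rarely used copies such as RpS28a at 0.705 and 0.415 TPM, from 4 and 3 reads, while no mitochondrial ribosomal protein gene lay under 9.68 TPM in a library. Apart from 1 mitochondrially encoded gene, mt:ND3 at 328 and 122 TPM, none of the genes tested in these lists differed 2-fold between the libraries. The median log2 ratio was 0.04 for the translation factors, 0.08 for the tRNA synthetases, 0.04 for the genes of transcription and upkeep, -0.01 for nuclear oxidative phosphorylation, 0.02 for the cytosolic ribosome and -0.17 for the mitochondrially encoded genes. The interquartile range of this ratio, 0.17 for the members, was 0.12 for the cytosolic ribosome and 0.15 for nuclear oxidative phosphorylation. It was 0.15 for the translation factors, 0.16 for the tRNA synthetases, 0.26 for transcription and upkeep and 0.34 for the mitochondrially encoded genes.

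**Figure D4:**
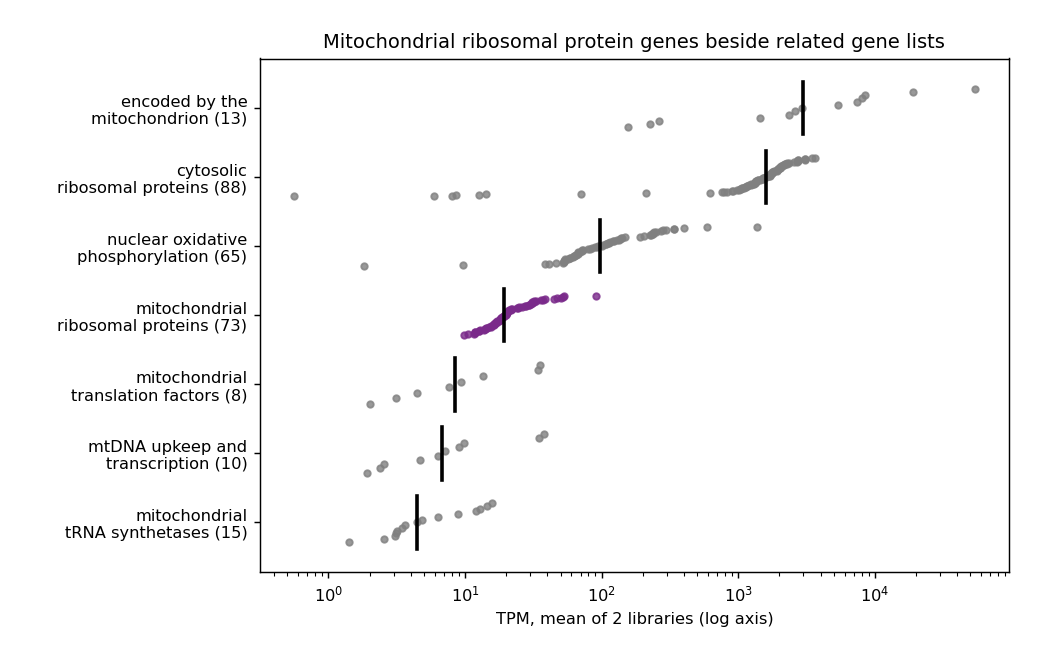
Each point is 1 gene by its mean TPM over 2 libraries on a log axis, in 7 lists with the number of genes in brackets; black lines are the mean over libraries of the list median. The mitochondrial ribosomal protein genes form a compact group with a median of 19.2 TPM, between the translation factors at 8.49 TPM and the nuclear genes of oxidative phosphorylation at 97.5 TPM.

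The members also resembled each other in ways that the choice by name did not use. They are short genes, 70 of 73 spanning under 2000 bases (95.9%) against 46.4% of the protein-coding genes measured. The exceptions included mRpS9, which spans 13391 bases on 3R, and mRpS5 with 6299 bases. Across the members, shorter transcripts tended to have higher TPM, with Spearman's rho of -0.34 and -0.31 in replicates 1 and 2 over 73 genes. These genes share the libraries and the estimate of effective length, and over the 10900 detected genes rho was -0.10 and -0.13. The members were spread over the major arms, from 21 on 3R and 17 on 3L to 12 each on 2L and 2R and 11 on X, with 0 on chromosome 4. No pair of members was adjacent in the order of protein-coding genes. Median levels by arm ran from 17.3 ± 0.554 TPM on X to 23.0 ± 1.52 TPM on 2R (SD, n = 2).

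The members lie close to other genes. Exons of 43 members (58.9%) overlap an exon of another gene, against 33.9% of the protein-coding genes, and in 42 of these a partner lies on the opposite strand. The shared stretch is mostly short, with a median of 55 bases or 6.97% of the exonic bases of the member, and it exceeds 25% in 6 genes. After mRpL53 these are mRpS24 with 55.3%, mRpS21 with 48.0%, mRpS14 with 35.8%, mRpL13 with 35.2% and mRpS9 with 25.1%. The partner of mRpS21, CG8870, stood at 0.407 and 0.633 TPM, and that of mRpS9, the mitochondrial synthetase gene ArgRS-m, at 4.15 and 3.14 TPM. mRpL13 lies inside CG10602 on the same strand, which stood at 65.3 and 55.3 TPM, above the 19.7 and 24.4 TPM of mRpL13. Whether the libraries keep the strand is not stated in the labels, and reads of such pairs may have been mixed. Members with and without exon overlap had the same median level to within the spread between libraries, 19.2 ± 0.705 and 18.9 ± 1.04 TPM.

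At their start, 56 members (76.7%) faced a divergent gene, meaning that the annotated start of a protein-coding gene on the other strand lay within 1000 bases upstream, against 33.1% of the protein-coding genes. The partners ATPsynD and Mitofilin were picked here for their known mitochondrial roles, and partners with such roles were not counted. The start of mRpL55 lies 95 bases from ATPsynD, a stalk subunit gene of the ATP synthase, and that of mRpL35 lies 192 bases from Mitofilin, which shapes the cristae. The levels differed within these pairs, with mRpL55 at 29.1 and 29.2 TPM and ATPsynD at 237 and 236 TPM. For the second pair, mRpL35 stood at 16.1 and 18.1 TPM and Mitofilin at 37.2 and 34.9 TPM. Other pairs lay closer, such as mRpS11 at 20.2 and 21.2 TPM and its partner Ns1 at 18.6 and 18.5 TPM. These shares describe the annotation and were not compared with genes of like length or density.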

How the data were processed

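The authors deposited, per the file headers, 1 table per library with length, effective length, TPM and estimated counts for each transcript, and the column names are those salmon writes. Tools listed in the submitters' processing notes, with no role, are STAR 2.5.2, HTSeq 0.6.1, bcl2fastq 2.18.0.12, Picard and FastQC. No source used here gives the quantifier, the build or the annotation. RNA was isolated with Trizol, per the labels' protocols.

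Of 30119 transcripts, 29992 matched by identifier to Ensembl release 115 (BDGP6), with equal lengths for 99.8%. The rest held 0.0981% and 0.110% of the reads and were left out. Positions are 1-based on BDGP6. TPM and counts were summed per gene. Counts were rounded and scaled with TMM factors of edgeR 4.0.16, with 0.5 reads added for log2 ratios. Intervals (95%, exact Poisson for levels, exact Clopper-Pearson for ratios, scipy 1.17.1) cover counting error only. They take reads as independent, and are too narrow where reads without molecular identifiers are PCR copies of the same molecule.

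Members and lists were chosen with earlier results of these data known. Genes were named as the 5 highest and 5 lowest of each subunit, those at least 1.5-fold apart, members sharing a number, and the ends of each list. Other genes named, such as mRpL12, mRpS23, mEFTs, TFAM and the partners of members, were chosen after their values were seen. Alternatives were other scalings (DESeq2 1.42.0 size factors, library size), read filters, fold and detection thresholds, single libraries, rRNA entries left out, overlapping members left out, and other classes by homology, the last chosen after seeing the data. Of the listed symbols mEFG2, mtRF1 and mtTFB1 were not matched, PolG1 was matched as a synonym of tam, and DAP3 is mRpS29. A planned promoter motif search was not run, since no promoter sequence was used here.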

Additional observations from a re-analysis of the deposited data

How the results depend on the processing

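With 1 group of 2 libraries there is no replicate test, and mRpL34, with 116 and 80 reads, has the least depth of the members. No paired analysis was possible because both libraries belong to 1 genotype. With each library alone, the share of TPM ranged from 0.167% to 0.174%, the large subunit median from 18.3 to 18.5 TPM, the small subunit median from 19.9 to 21.3 TPM, their ratio from 0.870 to 0.924, and the ratio of low-number to high-number medians from 1.05 to 1.10 (in the small subunit from 1.56 to 1.61, in the large subunit from 1.03 to 1.06). All 73 members were detected in each library alone and at 0.5 or 5 TPM.

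With rRNA entries left out, the share was 0.179% and the large subunit median 19.4 TPM. Both are means over the libraries, which do not show their spread or order under this setting. As CPM, not per length, the share was 0.105%, the subunit medians 12.2 and 11.9, their ratio 1.03 and the class ratios 1.08 in the small and 1.02 in the large subunit. Without overlapping members, 30 genes remained, with 0.0748% of the TPM, a large subunit median of 17.7 TPM, a subunit ratio of 0.851 and class ratios of 1.69 over both subunits, 1.83 in the small and 1.49 in the large subunit. Chosen after seeing the data, mRpS18A and mRpS30 in the large subunit gave 1.54 in the small and 1.11 in the large subunit, and mRpS24, mRpS28, mRpL47 and mRpL55 counted as having bacterial counterparts gave 1.19 over both, 1.41 in the small and 1.14 in the large subunit. Adding tko and bonsai gave a share of 0.176%. The median log2 ratio of the members was 0.27 with library size alone and 0.067 with DESeq2 size factors. The count of members 2-fold apart, 0 by TMM scaling, was 0 under every scaling and read filter tried, 1 at a 1.5-fold threshold and 6 for single transcripts. mRpL34 was 1.65-fold higher in replicate 1 with library size alone and 1.90-fold with DESeq2 size factors. The cause of these changes was not tested.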
